A study of Mus musculus with 6 samples.

Results

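In the inflamed mouse colon, 10 genes of the Notch pathway and of secretory cell fate were followed: the ligand genes Dll1, Dll4 and Jag1, the receptor genes Notch1 and Notch2, the glycosyltransferase gene Lfng, the target gene Hes1 and the secretory lineage genes Atoh1, Gfi1 and Spdef. They were taken by gene name from the deposited table, and all 10 of them were found among its 27202 genes. Each of the 10 was among the 16246 genes whose mean normalized count over the 6 libraries was at least 10, the level set for testing.

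Colon RNA was sequenced in 3 libraries from Nedd4l fl/fl VillinCre mice (cKO) and in 3 from Nedd4l fl/fl littermates (WT). In the cKO mice the Villin promoter drives Cre in intestinal epithelial cells (IECs), constitutively, so that Nedd4l, which encodes a HECT-type E3 ubiquitin ligase, is deleted in the epithelium and not in the other cells of the tissue. The floxed allele was shared by both genotypes, and so was the injury. All mice were 8 to 10 weeks old when treated and drank 2% dextran sulfate sodium (DSS), a polysaccharide that damages the colonic epithelium, for 7 days, and no mice without DSS are among these libraries. The floxed and the Cre lines were on a C57BL/6J background. Both sexes were used in the study, and the labels do not give the sex behind each library. Xist, the RNA of the inactive X chromosome, had 14082 to 20056 normalized counts in all 6 libraries. Of the 5 genes on the sex marker list, only 1, Xist, was found among the deposited genes. The Y-linked markers of the list were thus absent and have no values to compare, and the reason for their absence was not tested. Each library is labelled as a separate sample, without a statement that it came from its own mouse, so p-values measure only the spread between these samples, which may be in part technical.

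Notch signaling works between neighboring cells. A Delta or Jagged ligand on a sending cell pulls on a Notch receptor of its neighbor, ADAM proteases and then gamma-secretase cut the receptor, and the freed intracellular domain joins RBPJ and Mastermind in the nucleus to switch on genes such as Hes1. In the crypts of the intestine HES1, a transcriptional repressor, keeps Atoh1 silent and so directs progenitors to the absorptive lineage, whereas cells that escape Notch express ATOH1 and become secretory. Downstream of ATOH1, GFI1 helps goblet and Paneth fate prevail over endocrine fate, and SPDEF drives goblet cell maturation.

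The 6 libraries held between 15530711 and 16488596 normalized counts, taken here as reads per gene after scaling each library by a single factor. Nedd4l itself had 476, 942 and 566 normalized counts in cKO1, cKO2 and cKO3, and 1241, 1271 and 1266 in WT1, WT2 and WT3. Every cKO library lay below every WT library, and the cKO mean was 52.5% of the WT mean. The log2 difference was −0.99 (SE 0.24, adjusted p = 0.225, limma), and without cKO2 it was −1.28 (adjusted p = 0.0131). cKO2 resembled the WT libraries (mean correlation over all tested genes 0.977) more than the other cKO libraries (0.966), whereas cKO1 and cKO3 resembled their own genotype more. Epithelial markers were present throughout: the summed normalized counts of 8 of 8 of them, Krt8 and Krt19 the highest, ran from 178542 to 204234 in cKO and from 196667 to 217771 in WT. cKO1 also stood apart, because its summed neutrophil marker counts were far higher and its summed goblet marker counts far lower than those of any other library. Both sums are given with the secretory genes. The range that a member's difference takes when libraries are left out in turn is therefore given beside it.

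Hes1 was the member with the clearest separation of the genotypes, Atoh1 was lower in cKO by a narrow margin, and the ligand, receptor, Lfng, Gfi1 and Spdef values of the genotypes overlapped. By limma on log2(normalized count + 1), 0 of the 10 genes passed an adjusted p of 0.05, as did 0 of all 16246 genes (0% lower and 0% higher). An unadjusted p under 0.05 was reached by 2 members that were lower in cKO (Hes1 and Atoh1) and by 0 that were higher, beside 7.08% of all tested genes lower and 6.91% higher. All 3 cKO libraries lay below all 3 WT libraries in these 2 members and above them in 0, beside 10.9% and 10.5% of all tested genes. The log2 difference lay below 0 in 3 members and above 0 in 7 (median 0.06), beside 49.8% of all tested genes below 0 (median 0.00). Without cKO1 this unadjusted level was reached by 1 lower and 1 higher member (6.32% and 5.31% of all tested genes), and without cKO2 by 3 and 2 (8.77% and 8.93%). The members were selected on their role, with the normalized counts of these cKO and WT libraries already known, so the counts and differences describe them and nothing is read from their number.

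**Figure D1:**
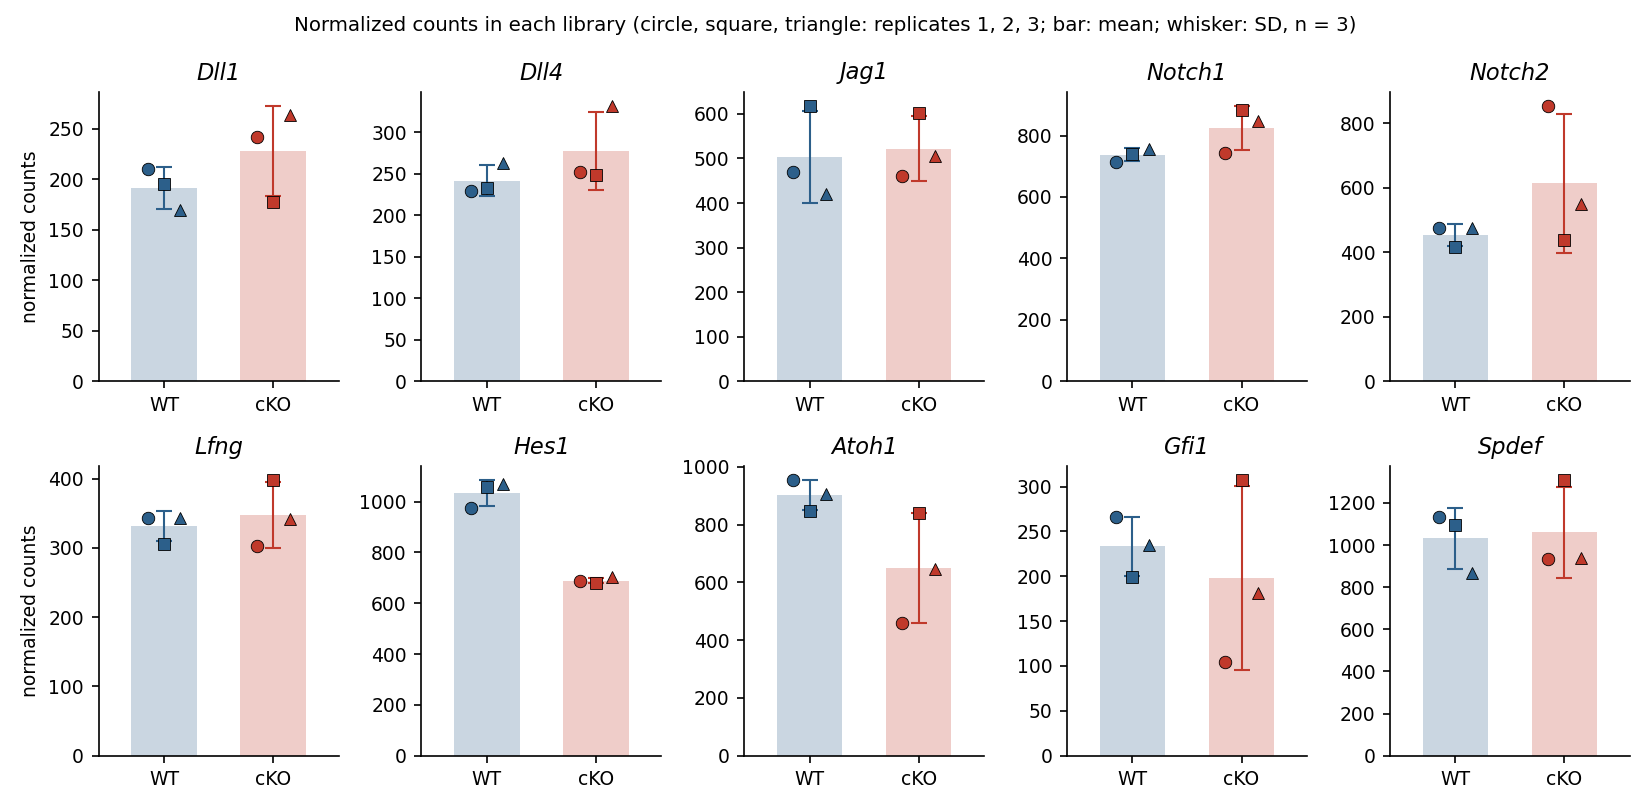
Normalized counts (vertical axes, from 0) of the 10 genes in each of 3 WT and 3 cKO libraries, with bars at the genotype mean and whiskers of 1 SD (n = 3). Hes1 lies between 679 and 701 in cKO and between 977 and 1068 in WT, and cKO2 is the highest cKO library for Atoh1, Gfi1 and Spdef.

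Among the ligands, Dll1, which encodes a Delta-like ligand shown by secretory progenitors, had 242, 178 and 264 normalized counts in cKO1 to cKO3 and 210, 195 and 170 in WT1 to WT3. cKO2 fell within the WT range and the other cKO libraries above it. The log2 difference was 0.24 (SE 0.18), with 0.12 without cKO3, 0.15 without WT3 and 0.40 without cKO2. Dll4, which encodes the Delta-like ligand that acts with DLL1 in crypts and is also made by sprouting endothelium, had 252, 249 and 332 in cKO and 229, 233 and 264 in WT. cKO3 was the highest of the 6 libraries and the other values overlapped, for a log2 difference of 0.19 (SE 0.15) that was 0.05 without cKO3 and at most 0.26 with any other library left out. Jag1, which encodes a Jagged ligand, had 460, 601 and 505 in cKO and 470, 618 and 419 in WT. Its spread within each genotype was far wider than the distance between them, with a log2 difference of 0.07 (SE 0.17, 95% interval −0.32 to 0.45) that was −0.04 without cKO2, −0.05 without WT3 and 0.22 without WT2. Annotated transcripts on the opposite strand overlap Dll1 and Dll4, at up to 39.8 (A930024N18Rik) and 66.3 (Gm14207) normalized counts in a library, and the library kit does not mark strand, so reads in the overlaps cannot be assigned with certainty.

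Of the receptors, Notch1, the main receptor of crypt progenitors together with Notch2, had 743, 883 and 846 normalized counts in cKO and 715, 740 and 757 in WT. cKO1 lay within the WT range and cKO2 and cKO3 above it. The log2 difference was 0.16 (SE 0.09), with 0.23 without cKO1 and 0.10 without cKO2. Notch2 had 854, 439 and 549 in cKO and 475, 416 and 474 in WT. The log2 difference of 0.38 (SE 0.23) rested on cKO1, without which it was 0.11, and it was 0.59 without cKO2. cKO1 was also the library with the highest summed counts of endothelial and of fibroblast markers. Endothelial marker sums (10 of 10 genes) were 4916 in cKO1, 2892 to 2980 in the other cKO libraries and 2016 to 2958 in WT. Fibroblast marker sums (8 of 8 genes) were 43899 in cKO1, 22083 to 23315 in the other cKO libraries and 11068 to 19067 in WT. Smooth muscle marker sums did not follow, at 6036, 8452 and 11502 in cKO1 to cKO3 and 9636, 21799 and 5559 in WT1 to WT3. The part of these cell types in the Notch2 value was not tested.

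Lfng encodes Lunatic fringe, a Golgi enzyme that extends O-fucose on Notch and changes which ligands the receptor answers to. It had 303, 398 and 341 normalized counts in cKO and 344, 306 and 343 in WT. The WT values lay inside the cKO range, and the log2 difference of 0.06 (SE 0.13, 95% interval −0.25 to 0.37) was −0.04 without cKO2 and 0.16 without cKO1.

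**Figure D2:**
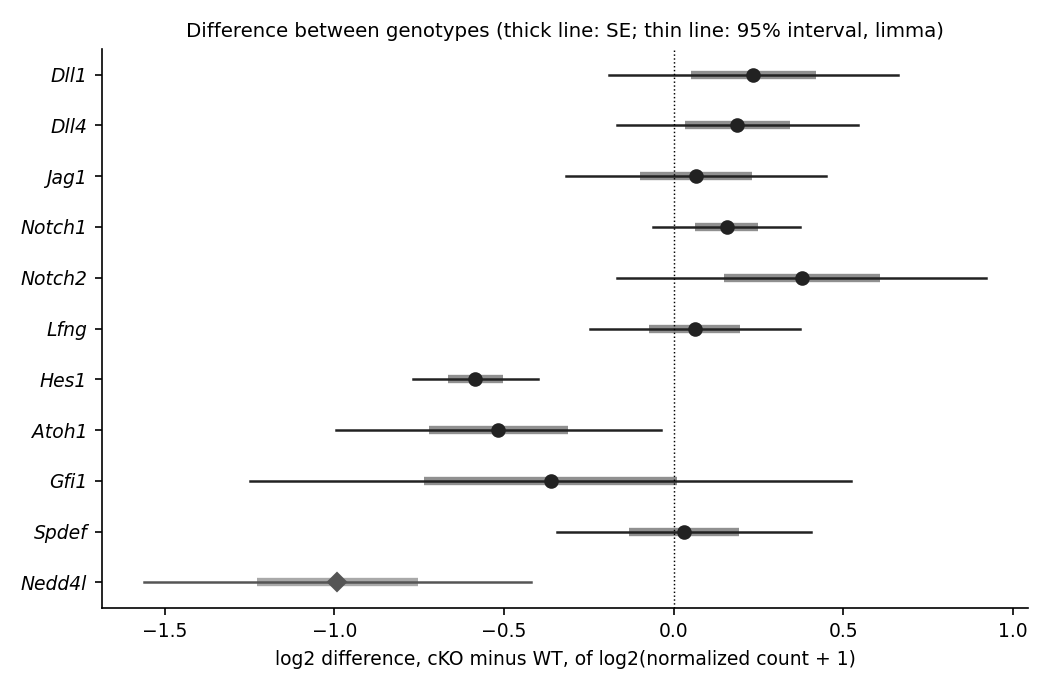
Log2 difference between genotypes (horizontal axis, cKO minus WT, of log2(normalized count + 1)) of the 10 genes and of Nedd4l, with thick lines for the SE and thin lines for the 95% interval from limma over 3 libraries per genotype. The interval of Hes1 runs from −0.77 to −0.40 and that of Atoh1 from −0.996 to −0.04, whereas the other members' intervals include 0.

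Hes1 (ENSMUSG00000022528) spans chr16:30064384-30067796 on the plus strand of GRCm38. It had 688, 679 and 701 normalized counts in cKO1, cKO2 and cKO3 and 977, 1059 and 1068 in WT1, WT2 and WT3. The genotypes did not overlap, and the lowest WT library was well above the highest cKO library. The cKO mean was 690 ± 11.3 (SD, n = 3) and the WT mean 1035 ± 50.4 (SD, n = 3), so that cKO stood at 66.6% of WT. The log2 difference was −0.58 (SE 0.08), and its unadjusted p ranked 11 among the 16246 genes while its adjusted p was 0.116 (limma). The cKO libraries that differed so strongly in other respects were alike in Hes1: the difference was −0.58 without cKO1, −0.57 without cKO2 and −0.60 without cKO3, and over all 6 omissions it ran from −0.62 to −0.56. The adjusted p of the 3 cKO omissions, in the same order, was 0.0732, 0.04999 and 0.487. Hes1 was the member that passed the threshold in 3 alternative fits: without cKO2, where 0.32% of all genes were called lower and 0.431% higher, with library weights (2.27% and 1.61%), and without the filter on low values (0.0846% and 0.0257%). In bulk tissue, fewer cells that express a gene and less RNA of that gene per cell cannot be told apart. Relative to the mean log2 value of the 8 epithelial markers in the same library, Hes1 stood at −4.53, −4.68 and −4.59 in cKO and at −4.14, −4.10 and −3.93 in WT, again without overlap and with a difference of −0.54.

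The 3 protein-coding genes whose log2 values followed Hes1 most closely over the 6 libraries, by Pearson correlation among 13921 genes, were Wdr76 (0.997), Rfc3 (0.996) and Dscc1 (0.996). Wdr76 had 303, 313 and 323 normalized counts in cKO and 479, 533 and 515 in WT. Rfc3 had 262, 262 and 255 in cKO and 401, 433 and 436 in WT. Each of them separated the genotypes as Hes1 did, and with 6 libraries in 2 genotypes such a likeness is largely set by that step between genotypes. Of 10 proliferation markers, 4 were lower (Mcm2, Mcm5, Mcm6 and Pcna) and 1 was higher (Ccnb1) in cKO at an unadjusted p under 0.05 (limma). The shares over all tested genes were 7.08% and 6.91%. Top2a, Mki67, Ccna2, Birc5 and Cdk1 overlapped between genotypes, with log2 differences from −0.15 to 0.06. Of the 10 markers 8 had a log2 difference below 0. Their summed counts ran from 18505 to 20301 in cKO and from 22583 to 24359 in WT. Their part in the Hes1 value was not tested.

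Atoh1 (ENSMUSG00000073043), the bHLH gene that commits cells to the secretory lineage, is a single-exon gene at chr6:64729125-64731245 on the plus strand. HES-family repressors bind class C sites (CACGNG) and N-boxes (CACNAG), and RBPJ binds the core TGGGAA. RefSeq promoter entries (GRCm38.p6) were found for 9 of the 10 genes, all but Hes1, and the 250 bases before each start site were searched on both strands for these 3 motifs, whose matches can overlap each other. CACGNG occurred in 6 of the 9 genes and in 23.5% of all 32851 promoters of this length, CACNAG in 4 of the 9 and in 36.7%, and TGGGAA in 2 of the 9 and in 21.6%. The Atoh1 sequence is shown because it held 3 CACGNG matches, at −131 to −126, −95 to −90 and −41 to −36 from the start site, and no CACNAG or TGGGAA. The Lfng and Spdef sequences are shown because they were the 2 with TGGGAA, at −135 to −130 and −108 to −103 in Lfng and at −22 to −17 in Spdef. The stretches are chr6:64728875-64729124 on the plus strand for Atoh1, chr5:140607091-140607340 on the plus strand for Lfng and chr17:27728952-27729201 on the minus strand for Spdef, written 5′ to 3′. Capitals mark CACGNG in Atoh1 and TGGGAA in Lfng and Spdef, on either strand.
Atoh1: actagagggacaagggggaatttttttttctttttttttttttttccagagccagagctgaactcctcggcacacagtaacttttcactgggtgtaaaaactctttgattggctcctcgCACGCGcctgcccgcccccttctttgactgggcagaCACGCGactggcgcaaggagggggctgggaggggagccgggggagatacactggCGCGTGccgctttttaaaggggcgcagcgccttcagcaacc
Lfng: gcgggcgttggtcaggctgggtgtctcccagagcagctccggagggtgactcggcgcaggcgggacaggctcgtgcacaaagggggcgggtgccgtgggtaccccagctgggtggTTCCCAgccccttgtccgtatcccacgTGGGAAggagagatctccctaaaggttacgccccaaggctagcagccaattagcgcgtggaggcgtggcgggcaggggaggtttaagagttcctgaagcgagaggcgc
Spdef: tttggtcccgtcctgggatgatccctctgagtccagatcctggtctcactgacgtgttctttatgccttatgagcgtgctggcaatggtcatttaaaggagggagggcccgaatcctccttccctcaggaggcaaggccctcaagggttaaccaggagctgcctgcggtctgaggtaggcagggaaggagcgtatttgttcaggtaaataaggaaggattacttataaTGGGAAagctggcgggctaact
A match says only that these letters stand in the window. Lfng also held 3 CACGNG matches and 1 CACNAG match, not capitalized, of which the CACGNG match at −112 to −107 overlaps the second TGGGAA and the one at −181 to −176 is the CACNAG match as well. Spdef held neither.

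Atoh1 had 460, 840 and 646 normalized counts in cKO1, cKO2 and cKO3 and 953, 848 and 905 in WT1, WT2 and WT3. The genotypes did not overlap, but cKO2 came within a few counts of WT2. The cKO mean was 649 ± 190 (SD, n = 3) and the WT mean 902 ± 52.4 (SD, n = 3), and the log2 difference was −0.52 (SE 0.20, adjusted p = 0.337, limma). Without cKO1 the difference was −0.29 (adjusted p = 0.433) and without cKO2 it was −0.72 (adjusted p = 0.0784). Relative to the epithelial markers Atoh1 stood at −5.11, −4.37 and −4.71 in cKO and at −4.18, −4.42 and −4.17 in WT, so that on this scale cKO2 lay within the WT range. Hes1 and Atoh1 were thus both lower in cKO, Hes1 to a similar extent in every cKO library and Atoh1 to an extent that differed between them.

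Gfi1, a zinc finger repressor downstream of ATOH1, had 104, 307 and 182 normalized counts in cKO and 266, 200 and 235 in WT. Its lowest and highest libraries, cKO1 and cKO2, were both cKO. The log2 difference of −0.36 (SE 0.37) became 0.03 without cKO1 and −0.75 without cKO2. Spdef, the ETS factor of goblet cell maturation, had 935, 1309 and 937 in cKO and 1133, 1094 and 868 in WT, and again cKO2 was the highest of all. The log2 difference was 0.03 (SE 0.16, 95% interval −0.34 to 0.41), −0.13 without cKO2, −0.09 without WT3 and up to 0.11 with another library left out.

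Among the cKO libraries, Atoh1 and Gfi1 had the same order as most goblet markers. The order cKO1 below cKO3 below cKO2 held for both, and nominally for Spdef, whose cKO1 and cKO3 values were nearly equal. It held for 6 of the 10 members, Notch1, Jag1 and Lfng among them, beside 23.5% of all tested genes. It also held for 8 of 20 tested secretory transcription factors, Atoh1, Gfi1 and Spdef among them. Of 13 goblet markers 11 had it, 2 of which are Atoh1 and Spdef themselves. The order was taken from these same libraries, so these counts only describe it. The reverse order held for 1 member, Notch2, and for 22.9% of all tested genes. The summed goblet counts were 145644, 537862 and 282047 in cKO1, cKO2 and cKO3 and 376911, 220615 and 311159 in WT1, WT2 and WT3. The WT libraries lay inside the cKO range. The sum is not that of every marker: WT2 lay below cKO1 in Tff3, Zg16, Agr2 and Sytl2, and WT3 lay below it in Spdef. Clca1, which encodes a secreted mucus protein, had 10947, 194396 and 55029 in cKO and 120797, 45848 and 78222 in WT. Fcgbp, which encodes the mucus IgG Fc-binding protein, had 26110, 142462 and 65114 in cKO and 103986, 39459 and 72352 in WT. The spread of both genes within the WT group was itself wide. Muc2, the gene of the main gel-forming mucin, was steadier, with 31745, 54736 and 47146 in cKO and 43651, 45639 and 46914 in WT. At the other extreme, Ang4, which encodes an antimicrobial ribonuclease of secretory cells, had 14.4, 13877 and 1215 in cKO and 4719, 3186 and 4120 in WT. Muc2 and Ang4 were chosen after their values were seen.

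cKO1, the library lowest in Atoh1, Gfi1 and summed goblet markers, was also the one with the highest summed neutrophil marker counts. S100a8, an abundant neutrophil gene chosen after its values were seen, had 2708, 31.0 and 417 normalized counts in cKO and 12.8, 38.7 and 29.0 in WT. Of 9 neutrophil markers 7 were tested, and the summed counts of all 9 were 9319 in cKO1, 2983 and 3213 in cKO2 and cKO3 and 2955 to 3235 in WT, a sum that outside cKO1 came mostly from Ly6g. Of the 7 tested markers, 6 had a log2 difference above 0 and 1, Ly6g, below. Ly6g had 2486.5, 2832.4 and 2200.2 in cKO and 2829.4, 3136.2 and 3064.5 in WT, so that cKO1 was below every WT library. Mmp8, Cxcr2, Ngp and Mpo were at 0 in at least 1 library outside cKO1. Hoxd13, a gene of the distal colon also chosen after its values were seen, had 17.2, 334 and 651 in cKO and 213, 195 and 78.9 in WT, so that cKO1 was the lowest here too. Hoxb13 and Hoxd11 of the same list were also lowest in cKO1. Hoxa13 was not: it had 810, 869 and 762 in cKO and 1067, 896 and 926 in WT, with cKO3 the lowest. The part of neutrophils, goblet cell number or colon segment in the Atoh1 and Gfi1 values was not tested.

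**Figure D3:**
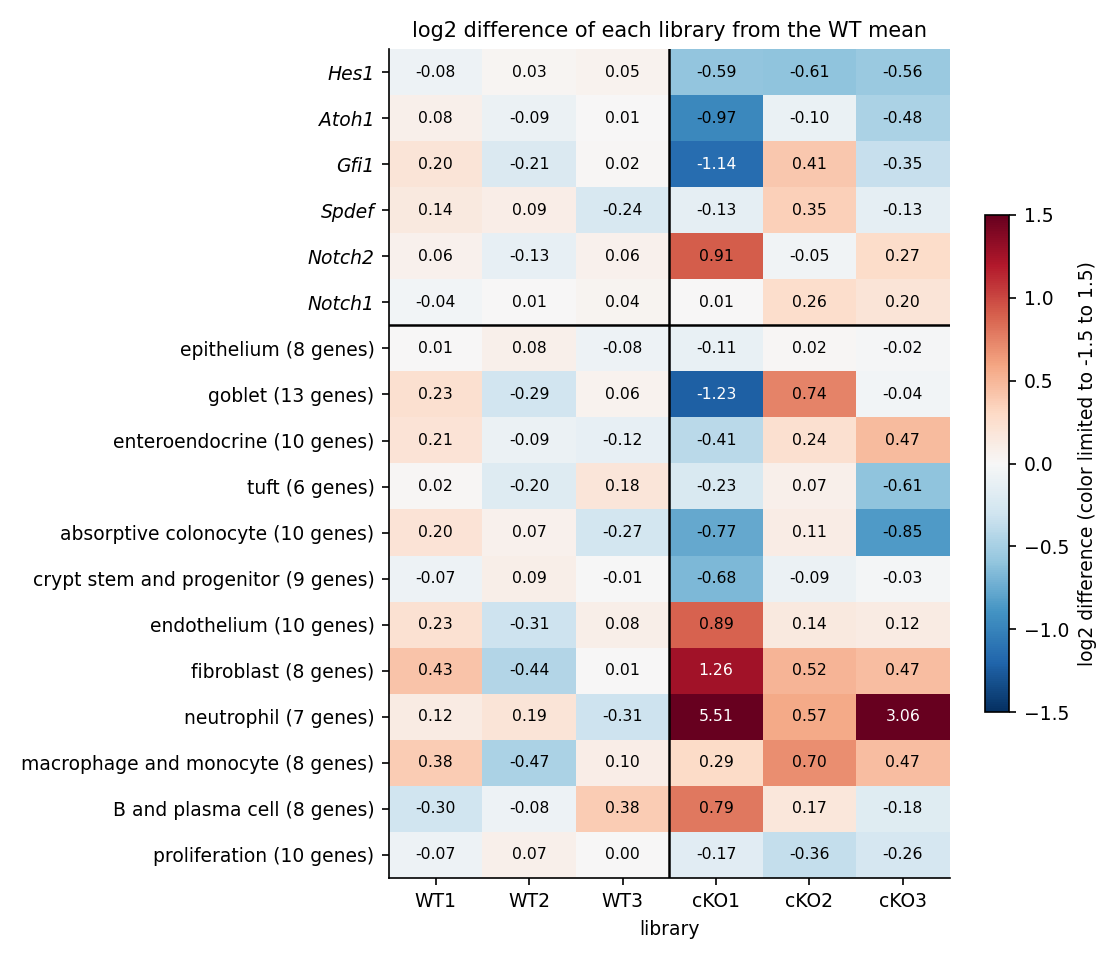
Log2 difference of each library (columns) from the WT mean for 6 members and, as the mean over tested genes, for 12 marker lists (rows), with the value printed in each cell and color limited to 1.5 either way. Hes1 is near −0.6 in all 3 cKO libraries, whereas Atoh1, Gfi1 and the goblet markers are lowest in cKO1 and the epithelial markers stay near 0.

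Of 10 enteroendocrine markers 0 were lower and 1 was higher in cKO at an unadjusted p under 0.05 (limma). The shares over all tested genes, for this and the following lists, were 7.08% lower and 6.91% higher. Pyy had 502, 1052 and 1284 in cKO and 1081, 1012 and 1037 in WT. Chgb had 923, 1046 and 1523 in cKO and 1157, 650 and 619 in WT. Of 6 tested tuft cell markers 1 (Trpm5) was lower and 0 were higher, and the log2 difference lay below 0 in 3 and above 0 in 3. Trpm5 had 7.67, 55.3 and 16.5 in cKO and 54.3, 73.8 and 79.9 in WT, with cKO2 just above WT1. Ptgs1, the list's most abundant gene, had 380, 367 and 283 in cKO and 363, 317 and 312 in WT. Pou2f3, the defining tuft cell factor, was at 0 in cKO1 and at most 13.5 elsewhere. The summed counts of 10 absorptive colonocyte markers, the fate that HES1 favors, were 47354, 76881 and 47734 in cKO and 83250, 76112 and 62052 in WT. Of these 10 genes, 9 had a log2 difference below 0 and 0 passed an unadjusted p of 0.05. Krt20 had 18741, 18121 and 17166 in cKO and 17751, 18815 and 14216 in WT, and Car4 had 6541, 19296 and 9491 in cKO and 15940, 18084 and 17657 in WT. Of 9 crypt stem and progenitor markers, 2 lower genes (Axin2 and Cdca7) and 0 higher had an unadjusted p under 0.05. These 2 did not overlap between genotypes, beside 10.9% of all tested genes lower without overlap. The log2 difference lay below 0 in 7 of the 9 and above 0 in 2 (median −0.29). The most abundant, Slc12a2 and Ephb2, overlapped between genotypes.

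The rest of the pathway was examined in the same fit. A further set of 8 lists by role, from ligands to nuclear cofactors, target genes and secretory transcription factors, held 80 genes beside the members, of which 71 were tested. None of the 71 was called by limma at an adjusted p under 0.05, and an unadjusted p under 0.05 was reached by 7 lower genes (9.86%) and 6 higher (8.45%), beside 7.08% and 6.91% of all tested genes. In 8 genes (11.3%) all cKO libraries lay below all WT libraries and in 11 (15.5%) above, beside 10.9% and 10.5% of all tested genes, and the median log2 difference was 0.07. The 9 genes below the level for testing included Dll3, Dlk2, Hes5, Hes7, Hey2, Gfi1b, Pax4 and Pou2f3.

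**Figure D4:**
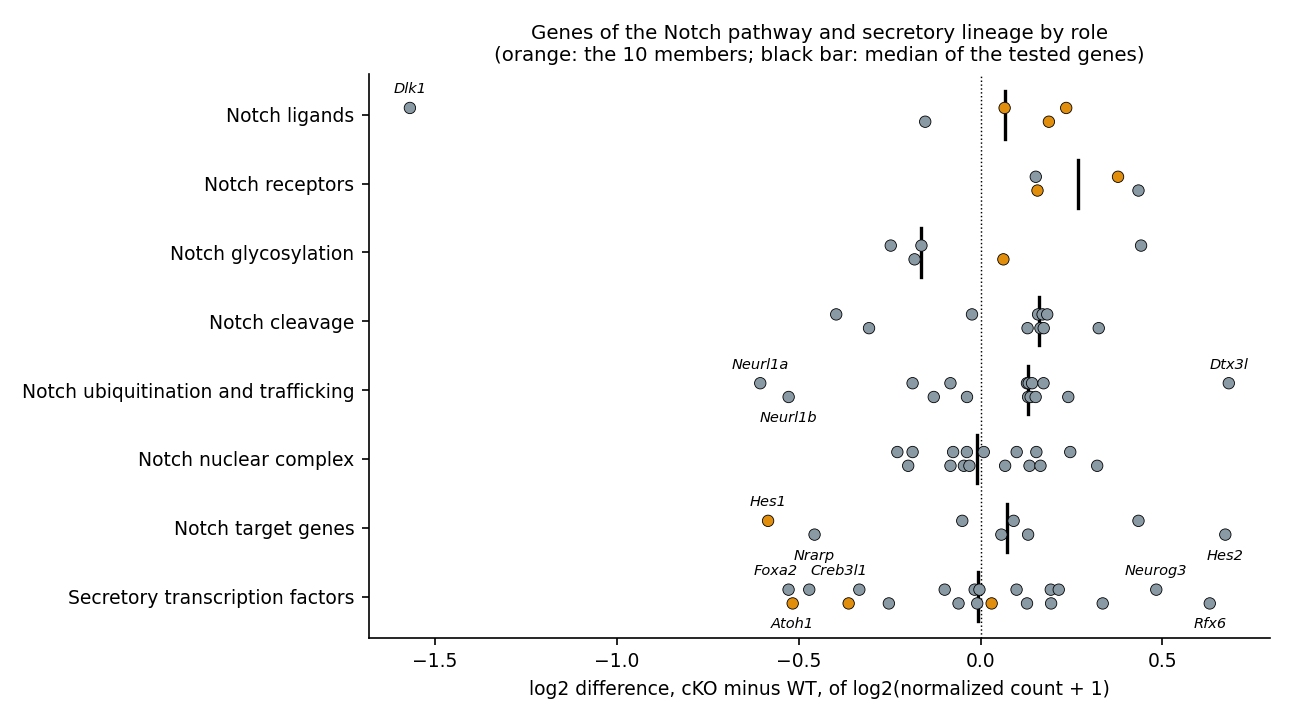
Log2 difference between genotypes (horizontal axis, cKO minus WT, of log2(normalized count + 1)) of every tested gene in 8 lists by role (rows), with the 10 members in orange and a black bar at each list's median. Dlk1 lies farthest from 0, at −1.57, and the list medians lie between −0.16 and 0.27.

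Among the other ligands Dlk1, an imprinted non-canonical ligand, had 35.5, 37.6 and 49.5 normalized counts in cKO and 80.0, 146 and 155 in WT, without overlap (log2 difference −1.57, SE 0.30, adjusted p = 0.169, limma). Jag2 overlapped. The remaining receptors, Notch3 of vascular mural cells and Notch4 of endothelium, both overlapped, and cKO1 was the highest library for each (308 and 644), as it was for the vascular markers Vwf (1024) and Pecam1 (1256). All 4 receptors had log2 differences above 0, from 0.15 to 0.43, and none passed an unadjusted p of 0.05. In the glycosylation list Poglut1, the Notch O-glucosyltransferase, had 329, 307 and 305 in cKO and 365, 374 and 377 in WT (log2 difference −0.25, adjusted p = 0.344), whereas Mfng and Pofut1, which encode Manic fringe and the O-fucosyltransferase, overlapped.

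ADAM10 and ADAM17 are proteases that can make the first cut in the receptor. Adam10 had 3892, 3056 and 3501 normalized counts in cKO and 2723, 2828 and 2751 in WT (log2 difference 0.32, SE 0.10, adjusted p = 0.276, limma). Adam17 had 1285, 1228 and 1251 in cKO and 1089, 1137 and 1118 in WT (0.17, SE 0.07, adjusted p = 0.352). Neither gene passed the adjusted threshold, and the genotypes overlapped in neither. Of the 10 cleavage genes 3 had a log2 difference below 0 (49.8% of all tested genes) and 4 lay higher in cKO without overlap (10.5% of all tested genes).

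Ubiquitin ligases act on both ends of Notch signaling, and the members of the list that differed most lay in opposite directions. Neurl1b, a Neuralized-type ligase for ligand endocytosis, had 503, 762 and 623 in cKO and 858, 984 and 848 in WT (log2 difference −0.53, SE 0.15, adjusted p = 0.264, limma). The related Neurl1a was low in both, at 19.6 to 22.1 in cKO and 29.6 to 35.1 in WT. Dtx3l, a Deltex-family ligase that is also interferon-inducible, had 2829, 1620 and 2260 in cKO and 1129, 1476 and 1503 in WT (log2 difference 0.68, SE 0.22, adjusted p = 0.296). None of these 3 genes, named for the smallest p of the list, overlapped between genotypes. Of the list's 15 genes, 2 lay lower and 2 higher without overlap, beside 10.9% and 10.5% of all tested genes.

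In the nuclear complex Rbpj itself, named after its values were seen as the DNA-binding partner of Notch, had 673, 702 and 700 normalized counts in cKO and 786, 677 and 738 in WT. The coactivator Maml1 had 506, 555 and 658 in cKO and 446, 452 and 470 in WT (log2 difference 0.32, SE 0.12, adjusted p = 0.313, limma). The acetyltransferase Kat2b was higher (0.25, adjusted p = 0.282) and the corepressor Ctbp1 lower (−0.23, adjusted p = 0.291) in cKO without overlap. The list as a whole had 8 log2 differences below 0 and 8 above.

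Of 8 tested target genes, Hes1 included, 3 had a log2 difference below 0 and 5 above. An unadjusted p under 0.05 (limma) was reached by 2 lower genes, Hes1 and Nrarp, and by 1 higher, Hes2. The shares over all tested genes were 7.08% and 6.91%. Nrarp, a feedback inhibitor that binds the Notch intracellular domain, had 172, 192 and 173 in cKO and 200, 255 and 290 in WT, without overlap (log2 difference −0.46, SE 0.17, adjusted p = 0.314, limma). Hes2 had 103, 60.8 and 71.2 in cKO and 45.4, 38.7 and 60.9 in WT, with cKO2 just below WT3 (log2 difference 0.67, SE 0.28, adjusted p = 0.349).

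Among the secretory transcription factors Creb3l1, a bZIP factor of cells with a high secretory load, had 2772, 4670 and 4036 normalized counts in cKO and 5384, 5002 and 5164 in WT, without overlap (log2 difference −0.47, SE 0.18, adjusted p = 0.331, limma). Foxa2, a forkhead factor of endoderm, had 304, 715 and 466 in cKO and 706, 619 and 696 in WT, so that cKO1 was the lowest library and cKO2 the highest of all. Rfx6, an enteroendocrine factor, had 29.7, 26.5 and 37.1 in cKO and 25.7, 16.2 and 18.0 in WT. The list had a median log2 difference of −0.01, with 11 of 20 genes below 0 and 9 above.

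The levels of the 10 genes were compared with each other per length, as normalized counts per kb of the gene length in the table. In WT the order was Hes1 (508 ± 24.8 per kb, SD, n = 3), Spdef (448 ± 62.1), Atoh1 (425 ± 24.7), Lfng (132 ± 8.69), Jag1 (86.2 ± 17.7), Gfi1 (73.2 ± 10.3), Dll4 (62.8 ± 4.91), Notch1 (51.8 ± 1.48), Dll1 (45.5 ± 4.86) and Notch2 (42.2 ± 3.16). The WT ranges of neighbors overlapped for Hes1 and Spdef, Spdef and Atoh1, Jag1 and Gfi1, Gfi1 and Dll4, and Dll1 and Notch2, so these pairs did not differ beyond their spread. Atoh1 and Lfng, Lfng and Jag1, Dll4 and Notch1, and Notch1 and Dll1 were separated. Hes1, Spdef and Atoh1 thus had higher levels per kb than every ligand and receptor gene among the members, in each WT library. In cKO the order began with Spdef (460 ± 93.5 per kb), Hes1 (339 ± 5.57) and Atoh1 (306 ± 89.6), with Lfng again next.

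**Figure D5:**
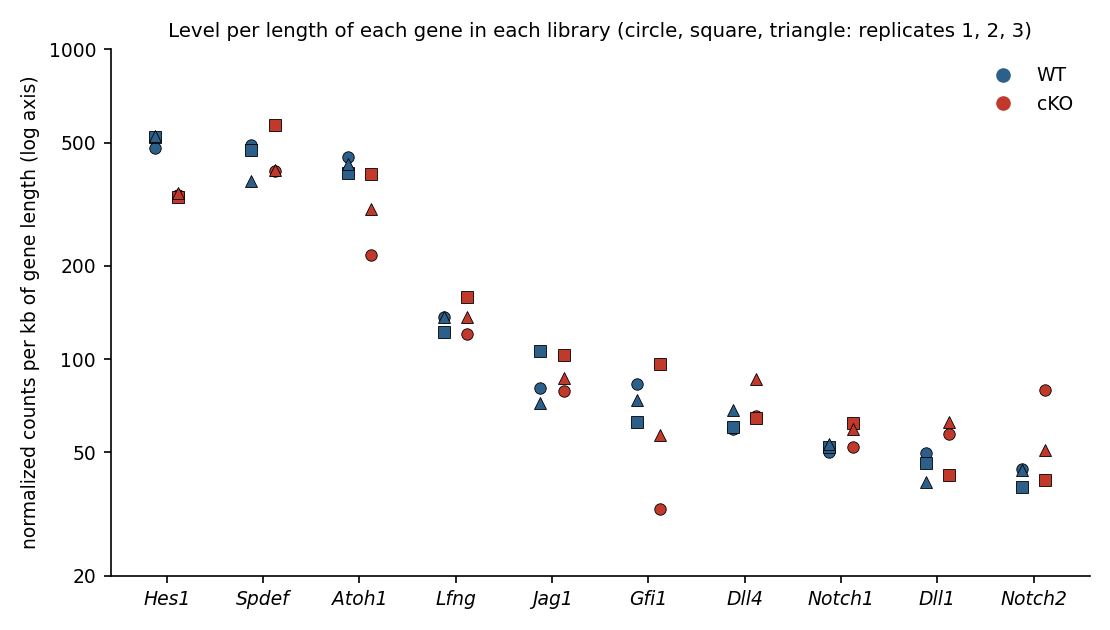
Normalized counts per kb of gene length (vertical axis, log scale) of the 10 genes, ordered by their WT mean, in each WT (blue) and cKO (red) library. Hes1, Spdef and Atoh1 lie above 200 per kb in every library and the other 7 genes below 160, and the cKO values of Gfi1 are the most widely spread.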

How the data were processed

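Colon RNA of Nedd4l fl/fl VillinCre and Nedd4l fl/fl mice (3 libraries each) had been extracted with TRIzol and sequenced after library preparation with a NEBNext Ultra RNA kit. The authors deposited 1 table of 27202 genes with normalized counts, a signal equal to the reads per gene divided by a factor for each library. The submitters' processing notes name HISAT2 2.0.5, featureCounts 1.5.0-p3 and the build hg18, a human build, while 97.2% of the genes carry the coordinates of GENCODE mouse release 21 on GRCm38, which are the ones printed here. How strand and shared reads were treated is not given in the sources used here. The authors' genotype means, log2 fold changes, p-values and adjusted p-values are also in the table and were not used.

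Values were taken as log2(normalized count + 1), a scale that understates changes of low genes. Genes with a mean of at least 10 (16246) were fitted for genotype with limma 3.58.1 under R 4.3.3 (lmFit, eBayes with trend and robust settings), with p-values adjusted by the method of Benjamini and Hochberg over all of them and called below 0.05. The procedure was tested on simulated data. Totals lay between 15530711 and 16488596, and the precision of a difference is that of 3 libraries per genotype. A marker list's value in a library is the mean log2 difference from the WT mean over its tested genes, and its sum is the sum of normalized counts.

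The members and the gene lists were chosen with earlier results of these data known. Named were the 10 members and Nedd4l, the 3 other genes of each of 8 role lists with the smallest p, the 2 most abundant genes of 7 marker lists, and the 3 protein-coding genes most like Hes1 and those most like Atoh1. Other genes named were chosen after their values were seen, and some genes that the rule names are not reported here. Dtx1 and Notch3 each stand in a pair of role lists. Motifs were searched in RefSeq promoters of GRCm38.p6. Figures were drawn with matplotlib 3.10.9. Alternatives covered scaling, pseudocount, the filter on low values, the variance model, library weights, a replicate block and the omission of each library. Replicate numbers did not pair the libraries: deviations of cKO and WT libraries with the same number correlated at −0.03, −0.09 and −0.06.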

Additional observations from a re-analysis of the deposited data

How the results depend on the processing

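Of the alternatives tried, 4 changed the calls, and the cause was not tested. Where the fit made 0 calls, 23 genes lower and 7 higher were called without a filter on low values, and 369 lower and 262 higher with array weights. Omitting 1 library at a time gave 0 to 52 lower and 0 to 70 higher, with 22 and 2 without cKO1, 52 and 70 without cKO2 and 0 without any other library. Members called numbered 1 (Hes1) without a filter (adjusted p = 0.0482), 1 (Hes1) with array weights (adjusted p = 0.00975) and 0 to 1 over the omissions, the 1 being Hes1 without cKO2 (adjusted p = 0.04999). Genes of the role lists called numbered 1 without a filter, 5 with array weights (Hes1, Neurl1b, Dlk1, Maml1 and Adam10) and 0 to 1 over the omissions. Over the 15 alternative fits the log2 difference of Hes1 ran from −0.62 to −0.56 (adjusted p 0.00975 to 0.487) and that of Atoh1 from −0.72 to −0.29 (0.0651 to 0.546), and relative to the epithelial markers, without a test, they were −0.54 and −0.48.

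Signs changed in 4 members under some alternatives: Spdef was −0.0422 with array weights and ran from −0.131 to 0.112 over the omissions, Jag1 from −0.0543 to 0.225, Gfi1 from −0.746 to 0.0274 and Lfng from −0.0394 to 0.157. With the replicate number as a block, 0 genes were called and Hes1 had an adjusted p of 0.192. The numbers are shared labels only, and 0 of the 3 same-number correlations was above 0.1. Scaling, pseudocount, a minimum mean of 50 and the plain variance model changed no call. The planned edgeR and DESeq2 fits were not run: every value was a whole multiple (within 0.0001) of its library's step, but in WT3 the step of 0.999 lies so close to 1 that recovered reads could not be told from rounded values. With 3 libraries per genotype, of which 2 cKO libraries stood apart, differences of the size seen in Gfi1 or Notch2 were not resolved.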

Other observations

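The 3 protein-coding genes most like Atoh1 over the 6 libraries were Tspan33 (Pearson correlation of log2 values 0.999), Pyurf (0.998) and Reep6 (0.998). Tspan33, a tetraspanin gene, had 97.8, 276 and 167 normalized counts in cKO1, cKO2 and cKO3 and 321, 270 and 305 in WT1, WT2 and WT3. Reep6, which encodes a protein that shapes the endoplasmic reticulum, had 149, 323 and 224 in cKO and 369, 334 and 366 in WT. In each of them cKO1 was the lowest library and cKO2 the highest of the cKO libraries, as for Atoh1. The 6 libraries share 2 genotypes and the low values of cKO1, so these correlations describe the likeness of profiles over few points.

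The gene of the gut hormone secretin, Sct, was the enteroendocrine marker with the smallest p, at 53.7, 57.5 and 70.1 normalized counts in cKO and 21.7, 18.0 and 22.0 in WT, without overlap (log2 difference 1.51, SE 0.25, adjusted p = 0.137, limma). Neurog3, the transcription factor gene that starts enteroendocrine fate, had 18.2, 12.2 and 14.4 in cKO and 4.94, 11.7 and 18.0 in WT, and these overlapped. Sct and Neurog3 were chosen after their values were seen.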
